A study of Mus musculus and Rattus norvegicus with 26 samples.

Results

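Cadherins, protocadherins and catenins were examined as a group of genes in 6 lists of intronic contigs, which are short genomic stretches inside introns that were covered by RNA-seq reads of cytoplasmic intron-sequence retaining transcripts (CIRTs). A gene was a member if its symbol began with Pcdh, with Cdh and a digit, or with Ctnn. In all, 38 of the 13695 genes in the lists were members, 37 of 12467 in the mouse lists and 16 of 5712 in the rat lists. Of these, 15 were listed in both species, 22 in mouse only, and Cdh23 in rat only.

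Mouse dendrites (3 libraries) and mouse somas (3 libraries) came from primary hippocampal neurons of C57BL/6 embryos at day 18, and rat dendrites (2 libraries) and rat somas (3 libraries) from those of Sprague-Dawley embryos at day 18. The dendrites were cut off by hand and pooled, and may hold some axon, whereas the somas contain the nucleus. BAT cells (6 libraries by the labels) were single cells of interscapular brown adipose tissue of CD-1 mouse embryos at day 17.5, and cardiomyocytes (9 libraries by the labels) were single sorted ventricular cells of transgenic C57BL/6 embryos at day 14.5, which carried the Fucci reporter of the cell cycle. No group received a drug or a knockout, and all RNA went through 3 rounds of aRNA amplification, a linear copying that starts from a poly(T) primer. The authors pooled the libraries of each condition into 1 list, so there was no replicate, and differences between lists are sizes without a test.

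Cadherins are membrane proteins that hold neighbouring cells together by binding the same or a similar cadherin on the next cell in the presence of calcium. Their cytoplasmic tails bind beta- and delta-type catenins, and alpha-catenins join this complex to actin. In hippocampal neurons the complex is known for its place at synapses and in dendrite growth, and in the heart for its place at the intercalated disc that couples cardiomyocytes. Protocadherins are a larger branch of the superfamily without the classical catenin-binding tail, and many are found in the nervous system. Several of these genes are among the longest of the genome, with very long introns.

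The sequences of a few contigs show what the lists hold. They are from the mouse genome NCBIM37 (mm9), 5′ to 3′ on the strand of the gene, and all lie within introns. The first set was chosen because the contigs of different lists covered the same stretch, and capitals mark the bases common to those contigs. In intron 2 of Cdh7 (NM_172853, plus strand, chr1:111925224-111925452), dendrites and somas shared 213 nt. In intron 15 of Cdh3 (NM_007665, plus strand, chr8:109078640-109078862), dendrites (25 reads), BAT cells (32 reads) and cardiomyocytes (4 reads) shared 207 nt. Overlap of this stretch with repeats was not tested. In intron 17 of Ctnna3 (NM_177612, plus strand, chr10:64430018-64430317), dendrites and cardiomyocytes shared 284 nt. In intron 14 of Ctnnbl1 (NM_025680, plus strand, chr2:157710007-157710162), BAT cells (44 reads) and cardiomyocytes (13 reads) had an identical contig of 156 nt, which covered this short intron of 157 nt but for 1 base.
Cdh7 intron 2: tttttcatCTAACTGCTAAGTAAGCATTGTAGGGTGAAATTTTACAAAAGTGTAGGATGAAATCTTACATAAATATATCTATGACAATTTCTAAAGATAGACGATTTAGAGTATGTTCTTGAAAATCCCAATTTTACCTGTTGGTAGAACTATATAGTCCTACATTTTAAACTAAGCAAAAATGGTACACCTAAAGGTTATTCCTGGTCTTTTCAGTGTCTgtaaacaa
Cdh3 intron 15: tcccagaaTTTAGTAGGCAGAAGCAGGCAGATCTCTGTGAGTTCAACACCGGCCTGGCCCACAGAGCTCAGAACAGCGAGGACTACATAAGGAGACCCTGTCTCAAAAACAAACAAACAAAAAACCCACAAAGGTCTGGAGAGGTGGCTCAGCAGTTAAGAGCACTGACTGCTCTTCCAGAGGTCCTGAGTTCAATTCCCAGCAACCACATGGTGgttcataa
Ctnna3 intron 17: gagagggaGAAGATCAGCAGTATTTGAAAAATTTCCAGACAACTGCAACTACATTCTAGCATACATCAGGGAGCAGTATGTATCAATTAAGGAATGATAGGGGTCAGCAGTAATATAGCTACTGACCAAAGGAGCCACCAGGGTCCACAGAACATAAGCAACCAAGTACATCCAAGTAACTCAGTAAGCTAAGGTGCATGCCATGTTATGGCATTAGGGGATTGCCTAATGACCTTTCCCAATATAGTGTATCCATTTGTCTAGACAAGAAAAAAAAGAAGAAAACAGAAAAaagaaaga
Ctnnbl1 intron 14: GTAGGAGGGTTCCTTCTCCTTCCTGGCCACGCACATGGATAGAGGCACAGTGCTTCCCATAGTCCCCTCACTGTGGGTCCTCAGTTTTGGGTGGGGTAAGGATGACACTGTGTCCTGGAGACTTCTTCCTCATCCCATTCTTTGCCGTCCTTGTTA

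The second set was chosen because a tract of A, to which a poly(T) primer can anneal, lay just downstream of the contig, and capitals mark the tract. A soma contig in intron 2 of Cdh6 (NM_007666, minus strand, shown chr15:13012918-13013159) ended 39 nt before 15 A. The dendrite and cardiomyocyte contigs at this place ran through the tract. The intron had 6 reads in somas, against 438 in dendrites and 4529 in cardiomyocytes. The soma contig in intron 11 of Ctnnbl1 (plus strand, shown chr2:157680620-157680800) ended 3 nt before 28 A, and the BAT contig at the same place 4 nt before it. A dendrite contig in intron 10 of Ctnna2 (NM_145732, minus strand, shown chr6:77008059-77008235) ended 17 nt before 10 A.
Cdh6 intron 2: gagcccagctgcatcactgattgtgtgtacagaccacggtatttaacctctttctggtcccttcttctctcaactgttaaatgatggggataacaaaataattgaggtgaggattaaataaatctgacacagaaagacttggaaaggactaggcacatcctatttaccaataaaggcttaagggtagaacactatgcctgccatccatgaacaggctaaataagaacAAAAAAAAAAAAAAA
Ctnnbl1 intron 11: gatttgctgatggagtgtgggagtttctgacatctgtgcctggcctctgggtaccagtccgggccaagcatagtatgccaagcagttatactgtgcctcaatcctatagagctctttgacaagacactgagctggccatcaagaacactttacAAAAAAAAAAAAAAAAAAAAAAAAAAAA
Ctnna2 intron 10: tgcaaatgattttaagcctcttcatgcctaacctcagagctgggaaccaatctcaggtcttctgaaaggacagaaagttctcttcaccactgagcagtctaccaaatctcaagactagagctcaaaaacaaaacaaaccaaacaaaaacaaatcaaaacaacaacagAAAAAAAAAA

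Members took under 2% of the listed reads in each mouse list when all contigs were counted, and a smaller share in rat. The share was 1.22% in mouse dendrites (37728 of 3086576 reads, 95% Wilson interval 1.21 to 1.23), 1.68% in somas (31218 of 1855447 reads, 1.66 to 1.70), 1.57% in BAT cells (280454 of 17858440 reads, 1.56 to 1.58) and 1.74% in cardiomyocytes (211848 of 12201042 reads, 1.73 to 1.74). It was 0.227% in rat dendrites (2286 of 1007530 reads, 0.218 to 0.236) and 0.231% in rat somas (4834 of 2094541 reads, 0.224 to 0.237). The cardiomyocyte share holds 25339 reads of an intron of Ctnna3 that lies within another listed intron of the same gene, and was 1.53% with only the larger of these overlapping introns (25347 reads) counted. Over introns with at least 1 contig of at most 400 nt, the length limit the authors used for whole cells, it was 3.00% in mouse somas, 1.61% in BAT cells, 3.06% in cardiomyocytes and 0.586% in rat somas. Reads are given per intron, so these shares include the reads of longer contigs in the same introns and are not shares of reads in short contigs. In mouse somas 67.3% of member introns had a single contig, against 85.9% of all introns. The intervals cover counting error only, since amplified reads are not independent molecules. Levels are given below as RPM, reads per 1000000 listed reads, which scales the reads of a gene's listed introns by the total of its list. Neither a level per length nor a level of mature mRNA can be read from them, and in a pooled list fewer cells with a transcript and less RNA per cell cannot be told apart.

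Most members were listed in most mouse conditions. Mouse dendrites listed 28 of the 37 members, against 69.0% of all genes in the mouse lists, somas 22 (47.3% of all genes), BAT cells 32 (82.0%) and cardiomyocytes 23 (49.8%). Rat dendrites and rat somas listed 12 of 16 members each (78.5% and 59.4% of all genes). The 95% Wilson interval of each member share included the share of all genes, and was 59.9 to 86.6% in mouse dendrites, 43.5 to 73.7% in mouse somas and 46.1 to 75.9% in cardiomyocytes. Of 47 symbols looked for in the families, 9 were in no list under that symbol, 7 of them beginning with Pcdh. A gene listed under another symbol was not counted here. No clustered protocadherin (Pcdha, Pcdhb or Pcdhg) was listed in any of the 6 lists, which says nothing of their mature RNA. The lists cannot hold a gene without an intron, so for any such gene the absence was fixed in advance.

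**Figure D1:**
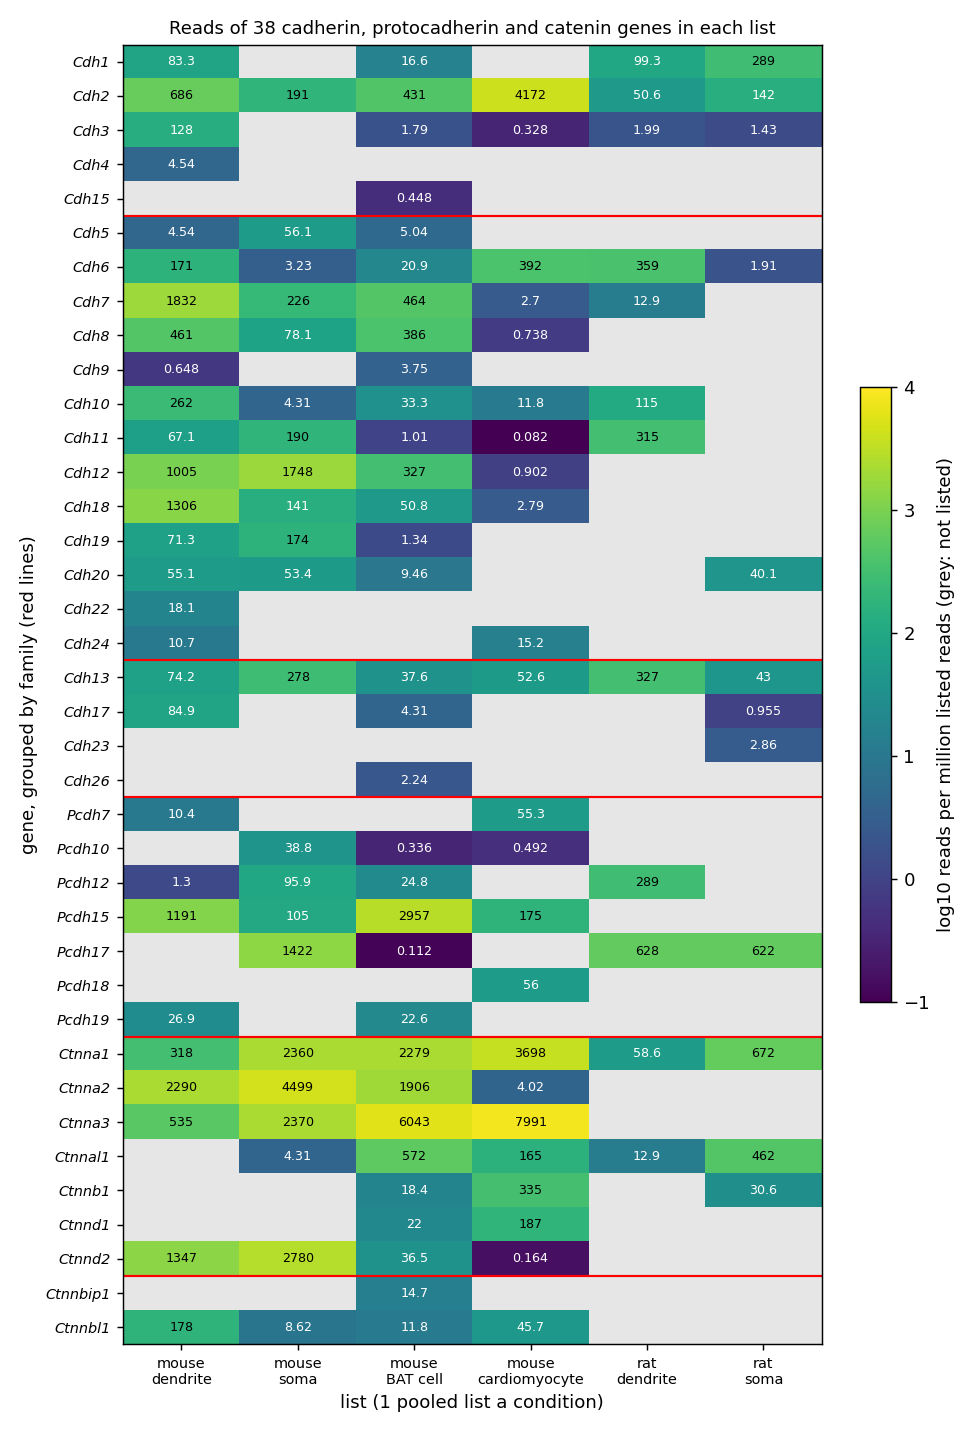
Level in RPM (the reads of a gene for every 1000000 reads of the list) of each of the 38 members (rows, grouped by family between red lines) in the 6 lists (columns), coloured on a log10 scale and printed in each cell; grey cells are not listed. Alpha-catenins are bright in all 4 mouse lists except Ctnna2 in cardiomyocytes (4.02), and Cdh2 is highest in cardiomyocytes (4172).

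The families divided the reads of the members differently in each list. Catenins took 71.4% of the member reads in mouse somas, 69.3% in BAT cells, 71.3% in cardiomyocytes and 50.5% in rat somas, but 36.7% in mouse dendrites and 3.15% in rat dendrites. Type II cadherins took 43.1% in mouse dendrites and 35.3% in rat dendrites, and between 1.82% and 15.9% in the other lists. Thus, in both species type II cadherins held a larger part of the member reads in dendrites than in somas (15.9% in mouse somas, 1.82% in rat somas) and catenins a smaller part. Protocadherins took 40.42% in rat dendrites, 26.9% in rat somas, 19.1% in BAT cells, 10.1% in mouse dendrites, 9.88% in mouse somas and 1.65% in cardiomyocytes.

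Among the type I cadherins, which form the classical adherens junctions, Cdh2 (N-cadherin, the main classical cadherin of neurons and heart muscle) was the only one listed in all 6 lists. Its level was 686 RPM in mouse dendrites, 191 in mouse somas, 431 in BAT cells and 4172 in cardiomyocytes, and 50.6 in rat dendrites and 142 in rat somas. The cardiomyocyte level stood above the other 3 mouse lists, and there Cdh2 ranked 18 of all listed genes by reads. Cdh1 (E-cadherin, of epithelia) was at 83.3 RPM in mouse dendrites, 16.6 in BAT cells, 99.3 in rat dendrites and 289 in rat somas, and was not listed in mouse somas or cardiomyocytes. Cdh3 (P-cadherin) reached 128 in mouse dendrites but rested on 2 to 32 reads in its 4 other lists. Cdh4 (R-cadherin) had 14 reads in mouse dendrites and Cdh15 (M-cadherin, of muscle) 8 reads in BAT cells, each in 1 list only.

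All 13 type II cadherins, of which many are expressed by distinct groups of neurons, were listed in mouse dendrites. Cdh7 was at 1832 RPM in dendrites, 226 in somas, 464 in BAT cells and 2.70 in cardiomyocytes, with 12.9 in rat dendrites. Cdh18 was at 1306, 141, 50.8 and 2.79 in the same order of mouse lists, Cdh12 at 1005, 1748, 327 and 0.902, and Cdh8 at 461, 78.1, 386 and 0.738. The cardiomyocyte values of Cdh12 and Cdh8 rested on 11 and 9 reads, and for these 4 genes the cardiomyocyte list was the lowest of the mouse lists. Cdh6 (K-cadherin) differed from them, with 392 RPM in cardiomyocytes, 171 in mouse dendrites, 20.9 in BAT cells and 3.23 in mouse somas, and with 359 in rat dendrites and 1.91 in rat somas. Cdh10 was at 262, 4.31, 33.3 and 11.8 in mouse dendrites, somas, BAT cells and cardiomyocytes, and at 115 in rat dendrites. Cdh11 (OB-cadherin, of mesenchymal cells) was at 67.1, 190, 1.01 and 0.0820 in the mouse lists, the last from 1 read, and at 315 in rat dendrites. Cdh19 and Cdh20 were listed in dendrites, somas and BAT cells, between 1.34 and 174 RPM, and Cdh20 also in rat somas (40.1). Cdh5 (VE-cadherin, of endothelium) had 14 reads in mouse dendrites, 104 in mouse somas and 90 in BAT cells. Cdh9, Cdh22 and Cdh24 had 2 to 185 reads in the lists that held them.

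Of the other cadherins, Cdh13 (T-cadherin, which is anchored to the membrane by a lipid and lacks the cytoplasmic tail) was in all 6 lists. It was at 74.2 RPM in mouse dendrites, 278 in mouse somas, 37.6 in BAT cells, 52.6 in cardiomyocytes, 327 in rat dendrites and 43.0 in rat somas, so that the higher of dendrites and somas was not the same in the 2 species. Cdh17 (LI-cadherin, of intestine) had 262 reads in mouse dendrites, 77 in BAT cells and 2 in rat somas. Cdh23, which forms the tip links of hair cells with Pcdh15, had 6 reads in rat somas, and Cdh26 had 40 reads in BAT cells.

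Among the protocadherins, Pcdh15 had the most listed introns of any member, 18 in mouse dendrites and 17 in BAT cells. Its level was 1191 RPM in dendrites, 105 in somas, 2957 in BAT cells and 175 in cardiomyocytes, with the BAT list highest. Pcdh17, a synaptic protocadherin, was at 1422 RPM in mouse somas, from intron 1, and at 628 and 622 in rat dendrites and somas, from intron 6, but had 2 reads in BAT cells. In rat the 2 lists held the same contig of 175 nt in that intron, at chr15:66481371-66481545 of the rn4 build, with 633 reads in dendrites and 1302 in somas. Pcdh12 (of endothelium) had 4 reads in mouse dendrites, 178 in mouse somas and 442 in BAT cells, and 291 reads, or 289 RPM, in rat dendrites. Pcdh7 was at 10.4 RPM in dendrites and 55.3 in cardiomyocytes, and Pcdh18 at 56.0 in cardiomyocytes only. Pcdh19 was at 26.9 in dendrites and 22.6 in BAT cells, and Pcdh10 at 38.8 in somas with 6 reads each in BAT cells and cardiomyocytes.

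Alpha-catenins carried the most reads of the catenins. Ctnna1 (alphaE-catenin, found in most cells) was at 318 RPM in mouse dendrites, 2359.5 in mouse somas, 2279 in BAT cells and 3698 in cardiomyocytes, and at 58.6 in rat dendrites and 672 in rat somas. In both species its level was lower in dendrites than in somas. Ctnna2 (alphaN-catenin, of neurons) was at 2290.2 in dendrites, 4499 in somas, 1906 in BAT cells and 4.02 in cardiomyocytes, where it had 49 reads. Ctnna3 (alphaT-catenin, known from heart muscle) was at 535 in dendrites, 2369.8 in somas, 6043 in BAT cells and 7991 in cardiomyocytes, ranking 3 by reads among all genes of the BAT list and 8 in cardiomyocytes. With the nested intron left out, Ctnna3 had 72154 reads in cardiomyocytes, or 5931 RPM, so that the order of BAT cells and cardiomyocytes turned. In BAT cells 90978 of its 107912 reads belonged to 1 intron that no other list held.

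The catenins that bind the cadherin tail were less even. Ctnnd2 (delta-catenin, of neurons) was at 1347 RPM in mouse dendrites, 2780.5 in mouse somas, 36.5 in BAT cells and 0.164 in cardiomyocytes, the last from 2 reads. Ctnnd1, its widely expressed relative, was listed in BAT cells (22.0) and cardiomyocytes (187) and not in the neuronal lists. Ctnnb1 (beta-catenin, which also acts in Wnt signalling) was at 18.4 in BAT cells, 335 in cardiomyocytes and 30.6 in rat somas, in 1 intron each. Ctnnal1 (alpha-catulin) was at 4.31 in mouse somas, 572 in BAT cells and 165 in cardiomyocytes, and at 12.9 in rat dendrites and 462 in rat somas. Of the genes named for binding or resembling beta-catenin, Ctnnbl1, a protein linked to the spliceosome, was in the 4 mouse lists at 178, 8.62, 11.8 and 45.7 for dendrites, somas, BAT cells and cardiomyocytes, and Ctnnbip1, an inhibitor of beta-catenin, had 262 reads in BAT cells.

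Dendrites and somas were compared to see which members' introns were found away from the nucleus. A gene listed in both was counted as apart if its RPM differed at least 4-fold. In mouse, 19 members were in both lists and 7 of them were higher in dendrites, against 33.2% of all 4739 genes in both: Cdh10 (60.7-fold, with 8 reads in somas), Cdh6 (52.8-fold, 6 reads in somas), Ctnnbl1 (20.6-fold, 16 reads in somas), Pcdh15 (11.3-fold), Cdh18 (9.28-fold), Cdh7 (8.09-fold) and Cdh8 (5.90-fold). Type II cadherins were 5 of these 7 and 10 of the 19, and another 4 of them, Cdh5, Cdh11, Cdh12 and Cdh19, had log2 ratios of -3.63, -1.50, -0.80 and -1.28. Lower in dendrites were 4 members, against 24.9% of all genes: Pcdh12 (74.0-fold, 4 reads in dendrites), Cdh5 (12.4-fold, 14 reads in dendrites), Ctnna1 (7.42-fold) and Ctnna3 (4.43-fold). The members' shares, 36.8% and 21.1%, were near those of all genes. With only the most read intron of each gene in each list, 5 were higher and 6 lower, so that the balance of the calls turned. No share over all genes was computed for this alternative, so the turn cannot be called particular to the members. The median log2 ratio of dendrites over somas was -0.80 over the 19 members and 0.27 over all genes. Cdh1, Cdh3, Cdh4, Cdh9, Cdh17, Cdh22, Cdh24, Pcdh7 and Pcdh19 were listed in dendrites and not in somas, and Ctnnal1, Pcdh10 and Pcdh17 in somas and not in dendrites.

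In rat, 8 members were in both lists. Cdh6 (188.1-fold, 4 reads in somas) and Cdh13 (7.60-fold) were higher in dendrites, against 35.7% of all 2166 genes, and Ctnnal1 (35.8-fold, 13 reads in dendrites) and Ctnna1 (11.5-fold) were lower, against 24.6%. When each gene was set relative to the median ratio of all genes, which was 0.73 on the log2 scale in rat, Cdh1 and Cdh2 also passed as lower while the same 2 members passed as higher, which took the share of higher among the member calls from 50.0% to 33.3% (59.2% to 47.6% over all genes). Of the 4 members in both lists of both species, Cdh6 (log2 ratio 5.72 in mouse, 7.56 in rat) was higher in dendrites and Ctnna1 (-2.89 and -3.52) lower by at least 4-fold in both. Cdh2 (1.85 in mouse, -1.49 in rat) and Cdh13 (-1.90 and 2.93) moved in opposite directions. Most dendrite reads of Cdh6 lay in intron 2 in mouse (438 reads) and in intron 11 in rat (358 of 362 reads). In rat the 4 soma reads lay in intron 7, so the rat ratio rests mainly on an intron that somas did not list.

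**Figure D2:**
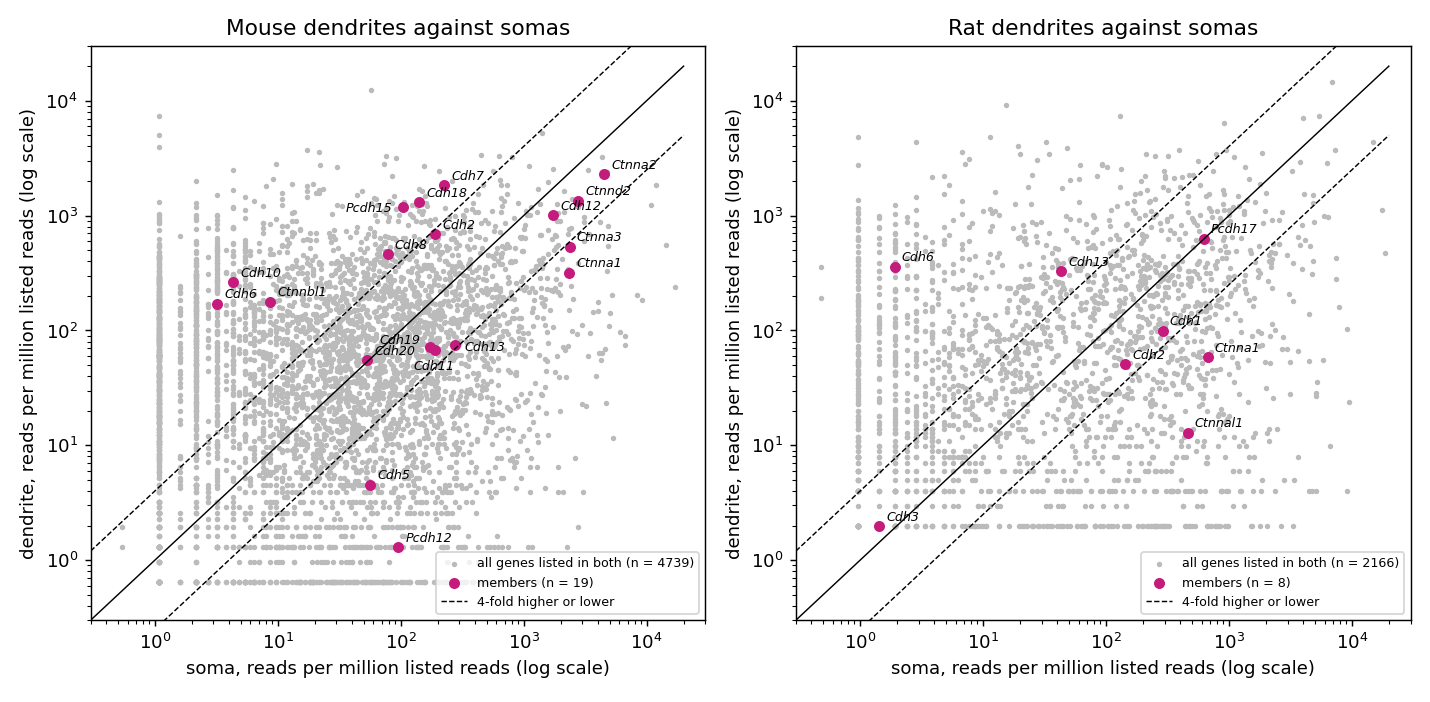
Level in RPM in dendrites (vertical) against somas (horizontal), both on log scales, for all genes listed in both lists (grey) and the members (magenta), in mouse (left) and rat (right); dashed lines mark 4-fold. Of the mouse members, 7 lie above the upper dashed line and 4 below the lower one, and in rat 2 lie on each side.

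Markers of other cells were also present in these lists. Of 6 endothelial markers, which include Cdh5, 4 were listed in mouse dendrites (639 RPM in all), 4 in mouse somas (733), 3 in rat dendrites (256.1) and 1 in rat somas (2.86). Of 8 fibroblast markers 5 were listed in mouse dendrites (82.6 RPM), 2 in mouse somas (56.1), 4 in rat dendrites (428) and 1 in rat somas (0.955). Their part in the values of Cdh5, Cdh11 and Pcdh12 was not tested. Neuronal markers were listed for 8 of 10 genes in mouse dendrites (2639 RPM) and 9 in mouse somas (10904), and for 4 in rat dendrites (1718) and 6 in rat somas (8815). Astrocyte markers were listed for 4 of 7 genes in mouse dendrites (966 RPM), 3 in mouse somas (142), 1 in rat dendrites (68.5) and 2 in rat somas (120.3). Microglia or macrophage markers were listed for 3 of 6 genes in mouse dendrites (342 RPM), 2 in mouse somas (168), 1 in rat dendrites (696) and 1 in rat somas (59.7). Cardiomyocyte markers were listed for 8 of 10 genes in mouse dendrites (1326 RPM) and 5 in mouse somas (1021), and brown adipocyte markers for 7 of 10 (460.4) and 2 (2.16). The part of these sets in the dendrite values of the members was not tested.

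The whole cells were compared with one another to see how the members differed between tissues. Of 20 members listed in BAT cells and cardiomyocytes, 9 were at least 4-fold higher in BAT cells, against 34.3% of all 5442 genes in both. They were Cdh8 (524-fold), Ctnna2 (475-fold), Cdh12 (363-fold), Ctnnd2 (223-fold), Cdh7 (172-fold), Cdh18 (18.2-fold), Pcdh15 (16.9-fold), Cdh11 (12.3-fold) and Cdh3 (5.47-fold), and 5 of these rested on 1 to 11 cardiomyocyte reads. Lower in BAT cells were Cdh6 (18.8-fold), Ctnnb1 (18.2-fold), Cdh2 (9.69-fold) and Ctnnd1 (8.48-fold), 4 members against 28.3% of all genes. The BAT list also held neuronal markers, 8 of 10 at 1829 RPM in all with Dlg2 and Syt1 the most read, against 3 of 10 at 926 in cardiomyocytes. The part of these markers in the levels of Ctnna2, Cdh7, Cdh8 and Cdh12 in BAT cells was not tested. Cardiomyocyte markers were listed for 6 of 10 genes in BAT cells (2122 RPM), and their part in the Ctnna3 level there was not tested. BAT cells listed 10 of 10 brown adipocyte markers (8931 RPM) and cardiomyocytes 10 of 10 cardiomyocyte markers (35748). Cardiomyocytes also listed 4 of 10 brown adipocyte markers (825 RPM). Of these, Lipe (538 RPM against 45.4 in BAT cells) and Cidea (213 against 86.7) were higher in cardiomyocytes. Ucp1 (73.7 against 369) and Prdm16 (0.492 against 34.7) were lower there.

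Mouse somas were higher than BAT cells by at least 4-fold for 9 of 22 members (33.7% of all 5076 genes): Pcdh17, Cdh11, Cdh19, Pcdh10, Ctnnd2, Cdh5, Cdh13, Cdh20 and Cdh12. Of these, Pcdh17 and Pcdh10 had 2 and 6 reads in BAT cells. Mouse somas were lower for 5 (26.7% of all genes), Ctnnal1 (133-fold, 8 soma reads), Pcdh15 (28.1-fold), Cdh10 (7.71-fold, 8 soma reads), Cdh6 (6.46-fold, 6 soma reads) and Cdh8 (4.94-fold). Against cardiomyocytes, somas were higher for 9 of 17 members (37.0% of all 3700 genes): Ctnnd2, Cdh11, Cdh12, Ctnna2, Cdh8, Cdh7, Pcdh10, Cdh18 and Cdh13. Of these, the 2 neuronal catenins Ctnnd2 (5159 against 2 reads) and Ctnna2 (8347 against 49 reads) and Cdh12 (3243 against 11 reads) had the most soma reads. Cdh11, Pcdh10 and Cdh8 rested on 1, 6 and 9 cardiomyocyte reads. Somas were lower than cardiomyocytes for 4 members (26.2% of all genes), Cdh6 (121-fold, 6 soma reads), Ctnnal1 (38.3-fold, 8 soma reads), Cdh2 (21.9-fold) and Ctnnbl1 (5.30-fold, 16 soma reads). These 2 comparisons share the soma list.

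The reads of a member often came from a single long intron. In dendrites the most read were intron 10 of Ctnna2 (chr6:76931895-77064923, 133029 nt, 6030 reads), intron 2 of Cdh7 (chr1:111890967-111945393, 54427 nt, 4756 reads) and intron 4 of Cdh18 (chr15:23189484-23296607, 107124 nt, 3323 reads). Per length, these were 102, 136 and 57.5 reads for each 50 nt of contig. In somas they were intron 2 of Ctnna2 (NM_009819, chr6:77708586-77795471, 7879 reads), intron 9 of Ctnnd2 (NM_008729, chr15:30613226-30704853, 4852 reads) and intron 7 of Ctnna1 (NM_009818, 4334 reads). Their densities were 217, 234 and 91.0 reads for each 50 nt of contig.

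In BAT cells intron 2 of Ctnna3 (chr10:62966884-63000268) held 90978 reads in 3 contigs, 1243 for each 50 nt. It was followed by intron 13 of Ctnna1 with 38552 reads in a single contig of 909 nt, 2121 for each 50 nt, and by intron 10 of Ctnna2 with 32070 reads, 326 for each 50 nt. Cardiomyocytes had 50154 reads in intron 2 of Cdh2, spread over 23 contigs at 140.0 for each 50 nt, 44260 in intron 7 of Ctnna1, at 1152, and 25347 in intron 6 of Ctnna3 (chr10:63283234-63315369), at 706. The contig listed for intron 1 of the shorter Ctnna3 transcript NM_001164519, with 25339 reads, lies within that intron 6. In rat dendrites the most read were intron 6 of Pcdh17 (633 reads), intron 11 of Cdh6 (358) and intron 3 of Pcdh12 (291), and in rat somas intron 6 of Pcdh17 (1302), intron 6 of Ctnna1 (1007) and intron 11 of Cdh1 (605). Introns of at least 256 reads made up 25.8% of the member introns in mouse dendrites, 19.2% in somas, 23.9% in BAT cells, 36.2% in cardiomyocytes, 11.5% in rat dendrites and 38.9% in rat somas. Over all introns these shares were 12.8%, 13.2%, 21.8%, 32.5%, 10.5% and 23.0%.

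A single contig was listed in 54.2% of the member introns in mouse dendrites, 67.3% in somas, 56.7% in BAT cells and 75.9% in cardiomyocytes, against 79.96%, 85.9%, 77.8% and 85.3% of all introns. In rat the shares lay closer, at 88.5% against 89.7% in dendrites and 83.3% against 90.2% in somas. In all, 150 of the 408 member introns over the 6 lists had several contigs, and since 1 read count is given per intron, the reads could not be divided among them.

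**Figure D3:**
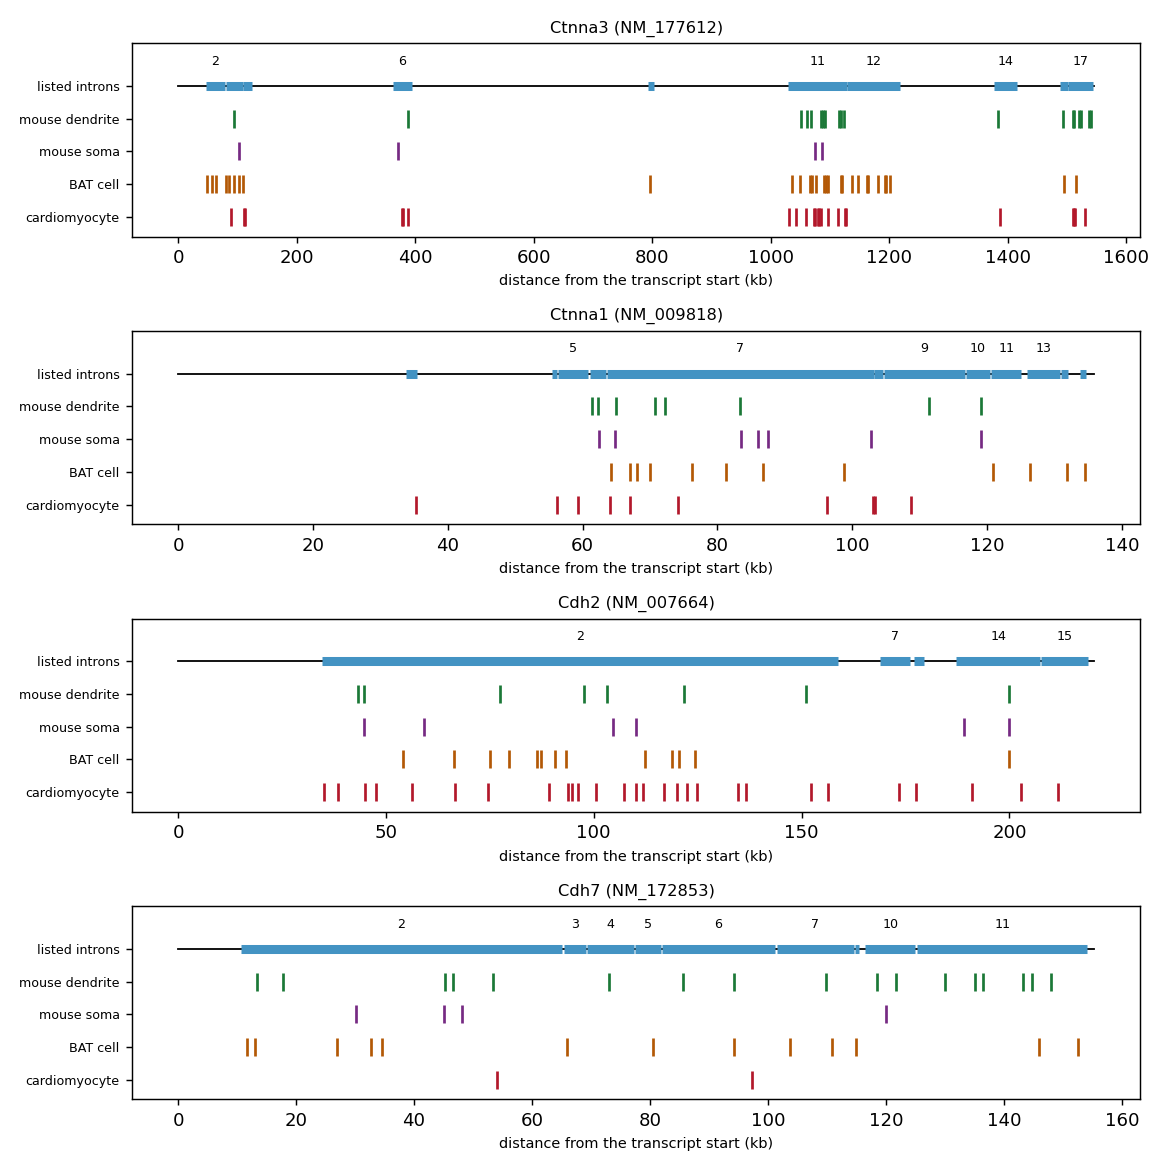
Positions of the contigs (ticks) of Ctnna3, Ctnna1, Cdh2 and Cdh7 in the 4 mouse lists, as the distance from the transcript start in kb; blue bars are the introns with a contig in any list, the longer ones numbered. Cardiomyocyte contigs are scattered along intron 2 of Cdh2 (23 contigs, which cover 14.4% of it), and Cdh7 has 2 cardiomyocyte contigs.

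The same introns were then sought in all mouse lists. Of 37 members, 15 were listed in all 4 (40.5%, against 24.6% of all genes): Cdh2, Cdh6, Cdh7, Cdh8, Cdh10, Cdh11, Cdh12, Cdh13, Cdh18, Ctnna1, Ctnna2, Ctnna3, Ctnnd2, Ctnnbl1 and Pcdh15. Of 198 member introns, 47 were in at least 3 lists (background 13.8% of all introns) and 14 in all 4 (7.07%, against 3.70%), with introns counted by transcript and number. By position on the genome 16 member introns were in all 4 lists and 31 in 3. The 2 added were intron 3 of Ctnna2 NM_145732 (366, 407 and 32 reads in dendrites, BAT cells and cardiomyocytes), which somas listed as intron 2 of NM_009819 (7879 reads), and intron 2 of Pcdh15 NM_001142760 (32, 29719 and 396 reads), which somas listed under NM_001142748 (170 reads). Among introns of at least 10000 nt, 38 of 103 member introns were in at least 3 lists (36.9%, Wilson interval 28.2 to 46.5), against 42.3% of all such introns. The excess over all introns was thus not seen at this length.

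Of the 14 introns in all 4 lists by transcript, intron 2 of Cdh2 had 258, 324, 7685 and 50154 reads in dendrites, somas, BAT cells and cardiomyocytes, and intron 14 had 1860, 30, 4 and 227. Intron 7 of Ctnna1 had 778, 4334, 2118 and 44260 reads in that order, and intron 11 of Ctnna3 652, 4208, 16684 and 15056. Intron 2 of Cdh7 had 4756, 47, 6166 and 30 reads. Thus, the list with the highest RPM differed from intron to intron, and within Cdh2 intron 2 was highest in cardiomyocytes and intron 14 in dendrites. Intron 2 of Cdh6 had 438, 6, 373 and 4529 reads, intron 2 of Cdh12 1171, 26, 2628 and 1, and intron 4 of Cdh18 3323, 37, 220 and 32. The others were intron 5 of Cdh10 (82, 6, 14 and 95 reads), intron 6 of Cdh11 (4, 2, 3 and 1), introns 5 (23, 103, 58 and 538) and 10 (12, 88, 356 and 94) of Cdh13, intron 4 of Cdh8 (896, 145, 2 and 9) and intron 3 of Ctnna3 (2, 168, 76 and 1). Of the 14, 4 had at least 32 reads in each list.

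By transcript, a further 33 introns were in 3 of the 4 lists, among them the pair of Ctnna2 and Pcdh15 introns that by position were in all 4. Among cadherins they were intron 11 of Cdh10, intron 3 of Cdh11, introns 4, 6 and 7 of Cdh12, introns 4, 8 and 11 of Cdh13, introns 2, 3 and 9 of Cdh18, intron 15 of Cdh3 and intron 6 of Cdh7. Among catenins they were introns 3, 10, 14, 16 and 17 of Ctnna2, introns 6, 7 and 17 of Ctnna3, introns 9, 11, 15, 17 and 19 of Ctnnd2, and introns 11 and 15 of Ctnnbl1. Among protocadherins they were intron 3 of Pcdh10, intron 3 of Pcdh12 and introns 2, 8 and 9 of Pcdh15. Their reads ran from 2 in several lists to 32070 in intron 10 of Ctnna2 in BAT cells.

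**Figure D4:**
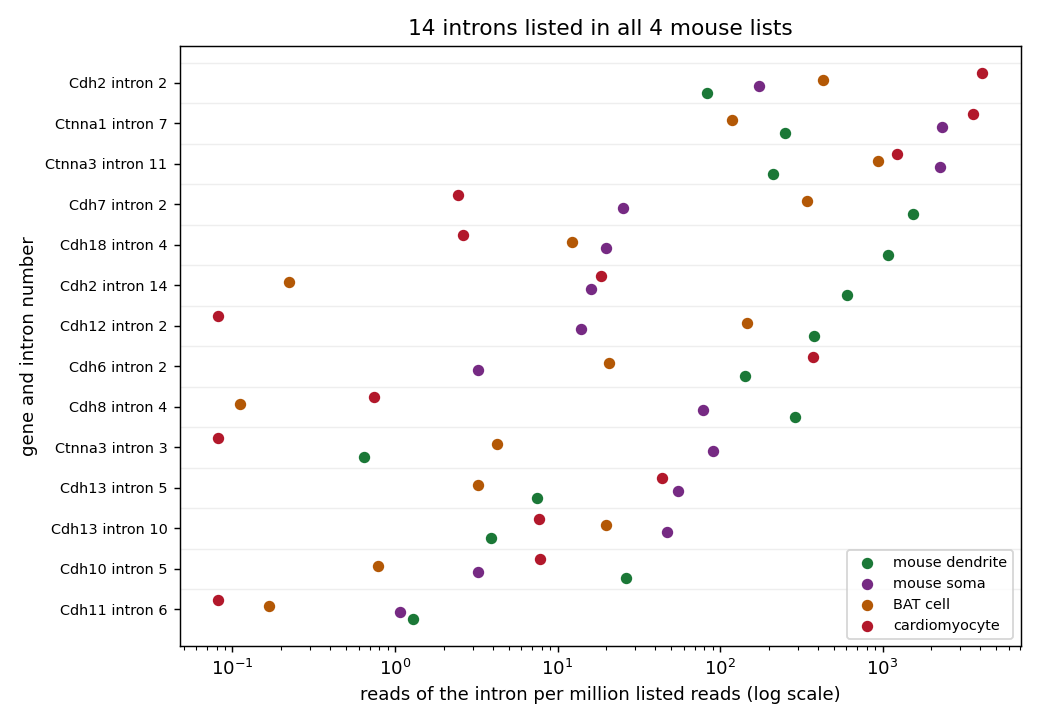
Level of the intron in RPM (log scale) for the 14 member introns listed in all 4 mouse lists under the same transcript, 1 point a list. The points of an intron lie up to several powers of 10 apart, as for intron 2 of Cdh12, from 0.0820 in cardiomyocytes to 379 in dendrites.

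Introns listed in 2 lists often held contigs at different places. Contigs overlapped by at least 1 base in 19 of the 41 member introns listed in dendrites and somas (46.3%, against 58.0% of all introns in both), in 24 of 80 for dendrites and BAT cells (against 44.0%), and in 9 of 34 for dendrites and cardiomyocytes (26.5%, against 44.9%). They overlapped in 9 of 33 for somas and BAT cells (27.3%, against 52.4%), in 4 of 17 for somas and cardiomyocytes (23.5%, against 59.8%) and in 13 of 36 for BAT cells and cardiomyocytes (36.1%, against 65.3%). In introns of at least 10000 nt contigs overlapped in 11 of 29, 20 of 69, 7 of 28, 7 of 26, 4 of 14 and 8 of 26 member introns, in the same order, and in 44.8%, 33.2%, 27.98%, 32.7%, 34.0% and 40.02% of all introns. In rat they overlapped in 4 of 6 introns (66.5% of all introns in both). In intron 2 of Cdh6, 1 of the 2 soma contigs lay wholly within contigs of dendrites and cardiomyocytes and the other met none, and the BAT contigs lay elsewhere, with 1 of 4 meeting another cardiomyocyte contig. In intron 10 of Cdh13 and intron 4 of Cdh8, by contrast, 2 and 0 of the 6 pairs of lists overlapped.

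Member introns were long, and this was set beside how often they were listed. Of the annotated introns of listed member transcripts, 31.6% had a contig in dendrites (119 of 377, against 16.6% of all annotated introns), 51 of 300 in somas (against 12.4%), 31.02% in BAT cells (134 of 432, against 23.0%) and 17.6% in cardiomyocytes (56 of 318, against 15.3%). The median listed member intron was 16907, 20341, 13331.5 and 12025 nt long in the 4 lists, and over all genes 3913, 3812, 2740 and 2748 nt. Between 10000 and 30000 nt, 61.8% of member introns were listed in dendrites (Wilson interval 50.6 to 71.9), against 38.4% of all introns of that length, and 59.0% in BAT cells (47.9 to 69.2), against 41.8%. Between 30000 and 100000 nt these were 30 of 50 (interval 46.2 to 72.4%) against 33.8%, and 59.2% (45.2 to 71.8) against 33.3%. In somas and cardiomyocytes the intervals of the members included the share of all introns in each of these classes. Up to 1000 nt, 4 of 91 member introns were listed in BAT cells (4.40%, 1.72 to 10.8), against 12.6% of all introns.

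**Figure D5:**
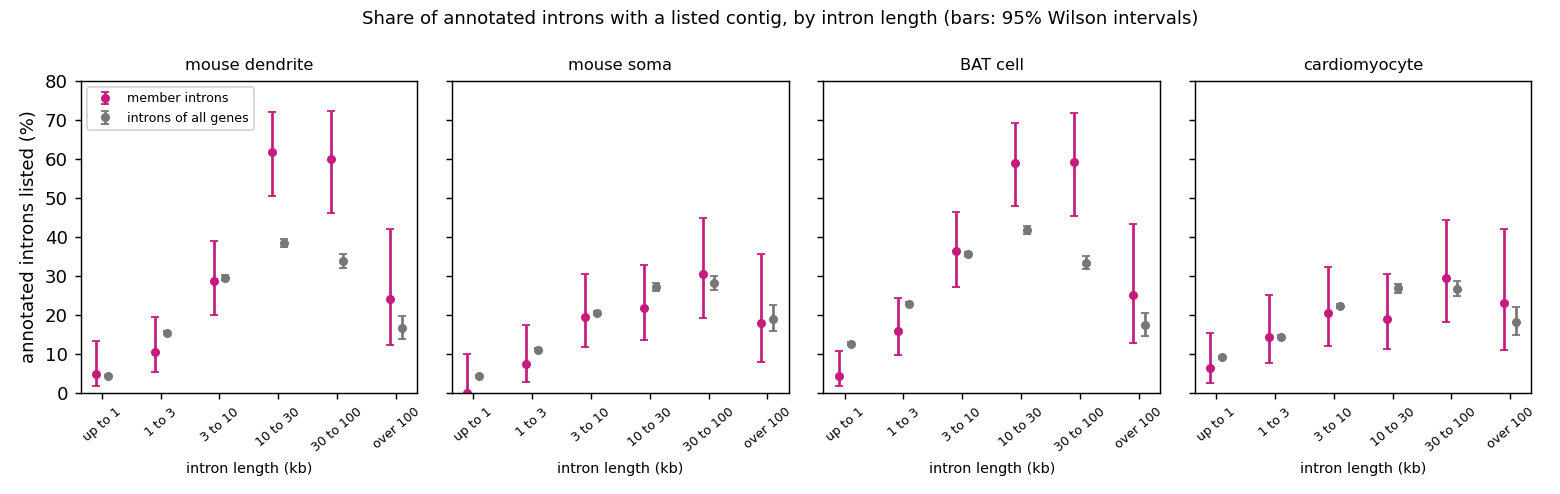
Share of annotated introns with a listed contig (vertical, %) by intron length in kb (horizontal), for member introns (magenta) and introns of all genes (grey) in each mouse list; bars are 95% Wilson intervals. Members stand above all genes from 10 to 100 kb in dendrites and BAT cells, at 59.0 to 61.8%.

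By position, intron 1 was not listed for any member transcript of at least 5 introns in the 4 mouse lists, whereas it made up 7.09%, 6.97%, 6.37% and 6.07% of such listed introns over all genes. Outside this count, intron 1 was listed in mouse for transcripts with fewer introns of Pcdh7, Pcdh17 and Pcdh19 (NM_001105246), and for the Ctnna3 transcript NM_001164519, which could not be matched to the annotation. In rat it was listed for Cdh13 in dendrites (245 reads) and somas (46 reads), and for Cdh7 (9 reads) and Ctnnal1 (2 reads) in dendrites. The 5′ side of the gene held 47.4% of the listed member introns in dendrites, 52.1% in somas, 47.7% in BAT cells and 62.3% in cardiomyocytes, against 57.4%, 53.5%, 52.8% and 50.7% over all genes. Only in dendrites did the member interval (38.6 to 56.4%) leave out the value of all genes. An annotated exon was touched by 7 of 262 member contigs in dendrites (background 5.04% of all contigs), 1 of 78 in somas (9.59%), 7 of 330 in BAT cells (7.51%) and 4 of 119 in cardiomyocytes (11.4%). Of those in intron 2 of Cdh7, 1 dendrite and 2 BAT contigs touched an exon of another Cdh7 transcript. Intron 7 of Ctnna1 holds the gene Lrrtm2 on the other strand, with the nearest contig 2 nt away, and contigs touched the antisense gene Gm15485 in intron 2 of Cdh2 and Gm14397 in intron 3 of Cdh22. The libraries do not keep the strand, so reads of these genes and of the intron cannot be told apart.

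A tract of at least 10 A within 300 nt downstream was found beside few member contigs: 14 in dendrites (5.34%, against 8.11% of all contigs), 12 in somas (15.4%, against 18.6%), 18 in BAT cells (5.45%, against 7.36%) and 8 in cardiomyocytes (6.72%, against 9.53%). This order turned in BAT cells at 8 A (11.8% against 11.6%) and in somas with a window of 500 nt (21.8% against 20.6%). In somas 10 of the 12 tracts began within 20 nt of the contig, as in the Ctnnbl1 sequence above, and in dendrites 5 of 14. A tract of at least 10 T within 300 nt upstream stood beside 30 member contigs in dendrites (background 12.6% of all contigs), 14 in somas (11.4%), 23 in BAT cells (8.95%) and 8 in cardiomyocytes (7.61%). Inside the contig, at least 10 A in a row stood in 10.7% of member contigs in dendrites (9.46% of all contigs), 16.7% in somas (11.96%), 5.15% in BAT cells (8.41%) and 23.5% in cardiomyocytes (Wilson interval 16.8 to 31.9, against 15.2%). These differences moved with the tract length. At 12 A the order turned in somas (7.69% against 8.39%) and the cardiomyocyte interval (10.5 to 23.6) held the 10.6% of all contigs. In BAT cells the member share stayed below that of all contigs at 12 A (2.42%, interval 1.23 to 4.71, against 5.35%). At 8 A the BAT interval (9.03 to 16.1) held the 13.8% of all contigs, while those of dendrites (15.5 to 25.1, against 15.4%), somas (19.4 to 39.03, against 17.96%) and cardiomyocytes (24.99 to 41.6, against 21.6%) lay above the share of all contigs. The median GC content of member contigs was 37.2% in dendrites, 38.5% in somas, 38.7% in BAT cells and 37.97% in cardiomyocytes, below that of all contigs (40.8%, 41.5%, 41.4% and 40.9%).

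Genes known to act with cadherins were counted as context. Of 104 such symbols, 70 were listed in mouse dendrites, 61 in somas, 76 in BAT cells, 52 in cardiomyocytes, 40 in rat dendrites and 36 in rat somas. Their shares were 67.3%, 58.7%, 73.1%, 50.0%, 38.5% and 34.6% in that order. Of the genes in any list of the same species, 69.0%, 47.3%, 82.0%, 49.8%, 78.5% and 59.4% were listed. That base holds listed genes only, unlike the 104 symbols. Among the 104 symbols the most read were Fat3 (a giant atypical cadherin) and Magi2 in mouse dendrites (8768 and 8261 reads), Adam10 (a protease that cleaves cadherins), Mllt4 and Magi2 in mouse somas (3518, 3188 and 2052), and Fat3, Crebbp and Pkp2 (a desmosomal protein) in BAT cells (51158, 30503 and 10006). In cardiomyocytes they were Magi3, Ptprk and Nckap1 (59087, 55761 and 25225 reads), in rat dendrites Mllt4, Nckap1 and Ptk2 (3735, 953 and 856), and in rat somas Fyn, Mllt4 and Magi1 (19260, 15158 and 10722). The desmosome and plakin set, which joins cadherins to intermediate filaments, was at 5365 RPM in cardiomyocytes with 5 of 16 genes listed, and at 475, 283 and 829 in mouse dendrites, somas and BAT cells with 13, 6 and 12 listed.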

How the data were processed

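The 6 deposited lists were each made by the authors from the libraries of 1 condition: reads were aligned, uniquely mapped intronic reads were kept, introns overlapping a predicted gene or a poly(A) site were discarded, and reads within 500 nt were joined into contigs (mm9 for mouse, rn4 for rat, per the submitters' processing notes). The deposited values are raw read counts per intron, repeated on each contig, and were taken once per transcript and intron (0 introns carried more than 1 count). For both BAT cells and cardiomyocytes the study's text names a smaller number of cells than the labels do, and which libraries entered the lists is not given in the sources used here.

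Counts were summed per gene symbol and divided by the listed reads of the list. With 1 pooled list per condition no test was run. Genes were called apart by a size rule of 4-fold, and genes not listed got no fold. Mouse intron positions were looked up in GENCODE for NCBIM37, with starts counted from 1. Rat intron lengths and sequences were not analysed here. Member names followed a fixed rule: the 5 most read members per list, members in all 4 mouse lists, members apart the same way in both species, the 3 most read introns per list, and introns in at least 3 mouse lists. The remaining members are given so that each is accounted for. Some genes outside the members are not reported here. Members, gene lists and markers were chosen with earlier results of these data known. Alternatives were other folds, read minimums of 8 and 32, introns with a contig of at most 400 nt (kept with all their reads), other scalings, other tract lengths and overlapping introns counted once. The alternatives for introns in several lists were chosen after seeing the data. Scripts were tested on simulated data and ran on Python 3.11.15, pandas 2.3.3, numpy 2.4.6, scipy 1.17.1, pysam 0.24.0 and matplotlib 3.10.9.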

Additional observations from a re-analysis of the deposited data

Results flagged for a closer look

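Cdh13 and Cdh2 had dendrite to soma ratios of opposite sign in the 2 species. For Cdh13 the log2 ratio of dendrites over somas was -1.90 in mouse and 2.93 in rat, and for Cdh2 it was 1.85 in mouse and -1.49 in rat. Each ratio compares 1 pooled list with another, so the difference between species was not tested. Rat values of Cdh2 rested on 51 reads in dendrites and 298 in somas, and those of Cdh13 on 329 and 90.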

How the results depend on the processing

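No paired analysis was possible because each condition is 1 pooled list and no result comes from a test. Leaving out single libraries was not possible either. Of the recomputed values, 136 stayed within their counting interval or within 1.5 times of a count and 39 moved further. The order of BAT cells and cardiomyocytes turned for the Ctnna3 level and for the member share (1.57% against 1.53%) with overlapping introns counted once, and the balance of higher and lower members in mouse dendrites against somas turned from 7 and 4 to 5 and 6 with the most read intron in place of the sum. With the most read intron no share over all genes was computed. Introns with at least 32 reads numbered 79, 32, 68, 33 and 10 for members in mouse dendrites, somas, BAT cells, cardiomyocytes and rat dendrites (17 in rat dendrites at 8 reads), and the member share of reads was then 1.25%, 1.72% and 1.58% in the first 3 of these lists. Over introns with at least 1 contig of at most 400 nt, with all reads of those introns counted (longer contigs included), the share was 1.76% in mouse dendrites, 3.00% in mouse somas, 1.61% in BAT cells, 3.06% in cardiomyocytes, 0.413% in rat dendrites and 0.586% in rat somas. With overlapping introns counted once it was 1.53% in cardiomyocytes, through the nested Ctnna3 intron alone. Members lower in mouse dendrites than in somas numbered 8 at 2-fold and 2 at 8-fold, members lower in somas than in BAT cells likewise 8 and 2, members lower in rat dendrites 4 at 2-fold and 4 with median-ratio scaling, and members higher there 1 at 8-fold. Over all 2166 genes in both rat lists, 656 were lower in dendrites with median-ratio scaling and 533 without it. At 2-fold and 8-fold no share over all genes was computed. Member introns in at least 3 mouse lists numbered 28 with at least 8 reads and 15 with at least 32, and those in all 4 lists 7 and 4, or 7 among introns with a contig of at most 400 nt. The shares of all introns under these limits were not computed. Of annotated member introns of at least 1000 nt, 36.8% were listed in dendrites (23.3% of all such introns) and 38.1% in BAT cells (29.3%). Tracts of at least 8 A stood beside 10.3% of member contigs in dendrites (12.5% of all contigs) and 11.8% in BAT cells (11.6%). Tracts of at least 12 A stood beside 3.05%, 3.33% and 1.68% in dendrites, BAT cells and cardiomyocytes, against 5.72%, 5.04% and 6.75% of all contigs. The cause of these moves was not tested beyond the smaller sets that each limit leaves. Ratios with fewer than about 10 reads on a side are limited by depth.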
